A study of Homo sapiens with 24 samples.

Results

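HERV9 is a family of endogenous retroviruses, the remains of retroviral insertions into primate germ lines, and LTR12 is the long terminal repeat (LTR) that flanks it. A complete insertion has an LTR on either side of an internal part, HERV9-int, but recombination has reduced most copies to solo LTRs. LTR12 copies carry a promoter, are known to start transcripts of genes nearby, and are held silent in most tissues by DNA methylation and repressive histone marks. They were chosen in the deposited table of repeat loci by name, as every entry whose name begins with LTR12 and every entry named HERV9-int. This gave 6555 of the 5298130 repeat loci.

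RNA came from 3 hepatocellular carcinoma cell lines obtained from a public repository, HepG2, SNU398 and SNU475, labelled wild type. Cells received the combination of decitabine and GSK-126, decitabine alone, GSK-126 alone, or DPBS (buffered saline). Decitabine (5-Aza-CdR, a nucleoside that traps DNA methyltransferases) was given at 100 nM and GSK-126 (an inhibitor of EZH2, which writes the H3K27me3 mark) at 500 nM, daily for 3 days. RNA was taken on day 14 in HepG2 and SNU398 and on day 21 in SNU475, so a difference between SNU475 and the other lines cannot be told apart from a difference in time. There were 24 libraries in 12 groups, with replicates A and B in each. Nothing in the sources used here tells whether A and B were separate cultures, so the p-values may measure technical spread only.

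Libraries held 32.6 to 60.37 M reads (M, mega), of which 57.19% to 69.53% lay in genes. The 2 HepG2 combination libraries were the shallowest of their line, with 32.6 and 34.41 M. ALB, the serum albumin gene of hepatocytes, ran from 2050 to 5540 scaled RPKM in HepG2 and reached at most 24.1 in the SNU lines, where it was uneven within groups. The 2 SNU475 DPBS libraries had 24.1 and 1.09, and the whole list of 6 hepatocyte markers summed to 57.4 and 3.28 there. The 2 SNU398 decitabine libraries had 22.1 and 0.369, and sums of 46.2 and 0.837. For that reason some, but not all, values that rest on SNU475 DPBS replicate A or SNU398 decitabine replicate A are also given without that library. Without the second of these, SNU398 decitabine gave 0.60 for LTR12C, 1.59 for HERV9-int and 1.37 for LTR12D, and 111 called members in place of 162, and the combination minus decitabine gave 3 in place of 17. The endothelial markers summed to at most 0.684, from CDH5 and VWF, since PECAM1 is listed at 0 on a patch sequence and tells nothing. Immune markers summed to at most 1.02 scaled RPKM. The 4 stellate or fibroblast markers summed to 205 and 218 in SNU475 combination libraries, 200 and 201 with decitabine, 193 and 196 with GSK-126, and 50.5 and 53.2 with DPBS; in HepG2 they summed to 21.6 and 21.2, 17.6 and 17.4, 8.65 and 9.33, and 8.45 and 8.25 in the same order, and in SNU398 to 11.3 and 11.7, 9.93 and 9.56, 3.78 and 3.4, and 3.63 and 3.42. Their part in the results below was not tested.

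The members fell into 8 subfamilies. LTR12C was the most numerous, with 2740 loci of a median length of 1418.5 bases. HERV9-int had 1035 loci, LTR12 774, LTR12F 636, the entry written LTR12_ in the files 555, LTR12D 489, LTR12B 211 and LTR12E 115. Outside every annotated gene body lay 4213 members, and 2174 overlapped one by at least 1 base. Another 168 lay on sequences that carry no gene in the deposited gene table. Solo LTRs, with no HERV9-int within 200 bases, numbered 4816, and 704 LTRs lay beside an internal part. No library had a read for 2086 of the 6555 members. Coordinates here and below are on hg19, the build of the files.

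In HepG2, RNA from the family was higher with decitabine and higher still with both drugs. Summed over all 6555 members, the level was 1583 and 1573 RPM (reads scaled to the library's total) in the 2 combination libraries, 1326 and 1335 with decitabine, 726 and 742 with GSK-126, and 741 and 710 with DPBS. In SNU398 the sums were 327 and 324 with the combination, 262 and 269 with decitabine, 149 and 147 with GSK-126, and 158 and 160 with DPBS. In SNU475 they were 96.5 and 103, 83.4 and 86.1, 78.3 and 82.2, and 93.8 and 93.0 in the same order. The combination libraries lay above the decitabine libraries and these above DPBS in HepG2 and SNU398, with no overlap, at 2.17 and 1.83 times the DPBS mean in HepG2 and 2.05 and 1.67 times in SNU398. In SNU475 the spread was narrow: the combination was at 1.07, decitabine at 0.91 and GSK-126 at 0.86 times the DPBS mean. In bulk RNA, more RNA per cell and more cells that transcribe a copy cannot be told apart.

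With GSK-126 and with DPBS, a few copies carried most of the HepG2 level. The 7 members within 60000 bases of DHRS2, singled out after their values had been seen, gave 594.9 RPM with the combination, 577.8 with decitabine, 592.3 with GSK-126 and 563.6 with DPBS, which was 37.7%, 43.4%, 80.7% and 77.7% of the family sum. DHRS2 encodes a short-chain dehydrogenase/reductase, and 4 of the members lie in its gene body. Without these 7 members, the HepG2 sum stood at 6.07 times the DPBS mean with the combination, 4.64 times with decitabine and 0.87 times with GSK-126. The 10 highest members held 43.7%, 49.6%, 83.5% and 82.6% of the HepG2 sum in the same order of treatments.

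The number of copies above a low bar shows the same order. Of all 6555 members, 623 reached 0.2 RPM in both combination libraries of HepG2, 512 in both decitabine libraries, 116 in both GSK-126 libraries and 118 in both DPBS libraries. In SNU398 the numbers were 227, 187, 83 and 92, and in SNU475 92, 79, 64 and 68. The HepG2 combination libraries were the shallowest of the line and still had the most members above the bar.

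**Figure D1:**
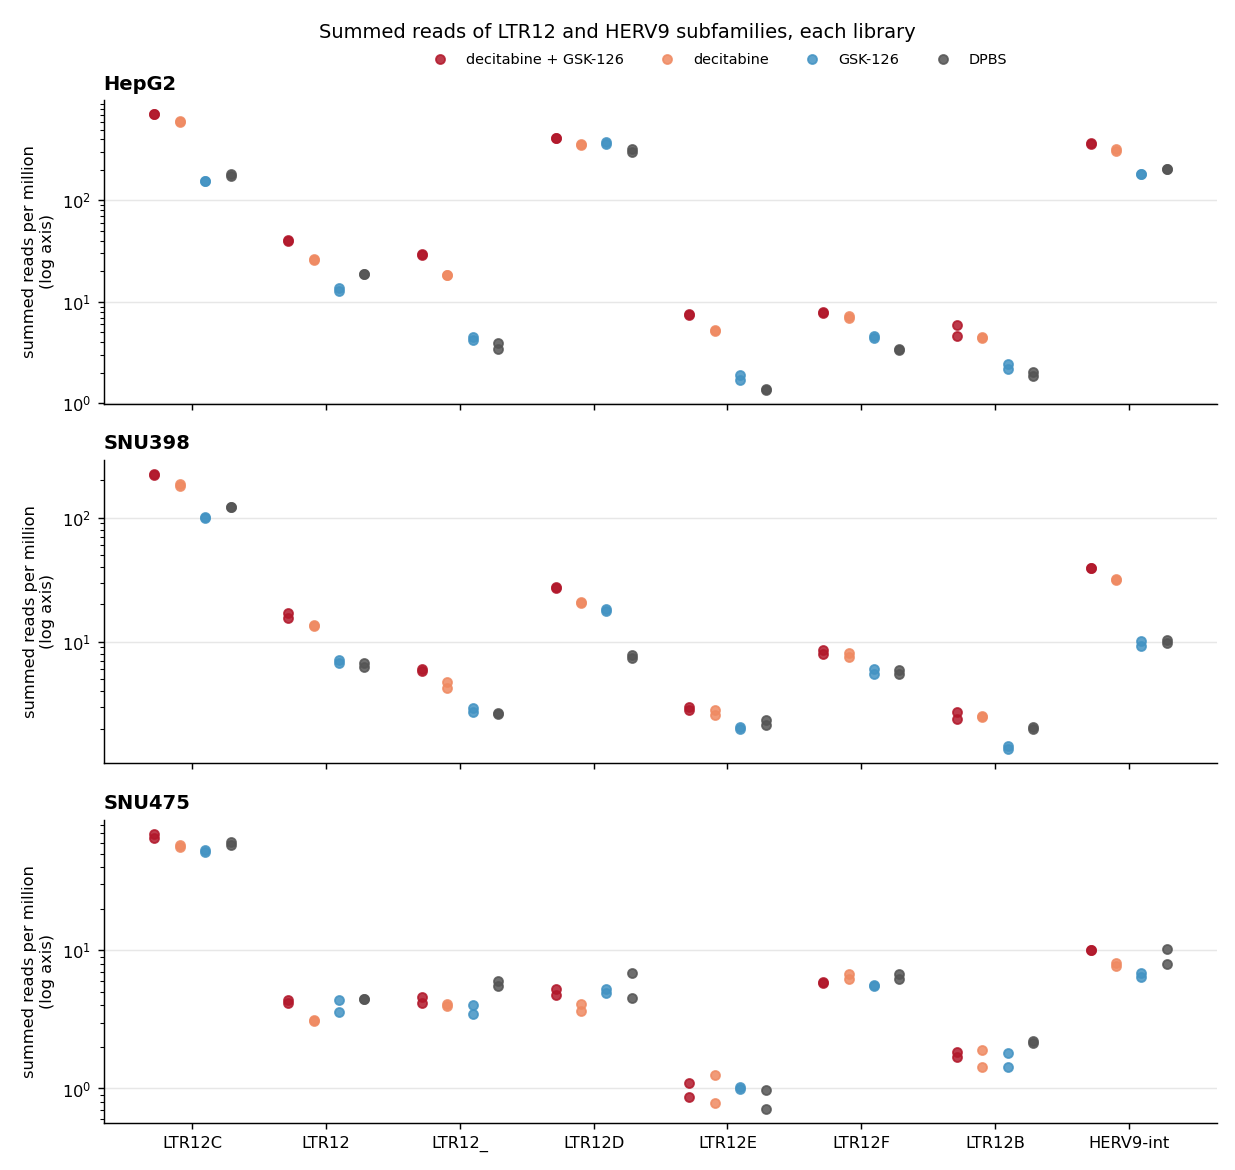
Summed RPM of each subfamily in every library (log axis), with a panel for each cell line and the treatments from left to right as combination, decitabine, GSK-126 and DPBS. Each point is a library. LTR12C in HepG2 sits at 709 and 705 with the combination against 182 and 173 with DPBS, while the SNU475 points of a subfamily lie close together.

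LTR12C, the subfamily with the most copies, rose in HepG2 and SNU398 with decitabine and with the combination. In HepG2 its sum was 709 and 705 RPM with the combination, 601 and 588 with decitabine, 154 and 156 with GSK-126 and 182 and 173 with DPBS. The log2 change against DPBS was 1.99 ± 0.04 (SE) with the combination (adjusted p = 9e-30) and 1.74 with decitabine (adjusted p = 7.4e-28). Adjusted p-values here and below come from limma with Benjamini-Hochberg adjustment over all features of the comparison, and an adjusted p under 0.05 is a call. Both treated pairs lay far above DPBS. GSK-126 alone lay below DPBS by a small margin, at a log2 change of -0.20 (adjusted p = 6.4e-05), and this was not called without the members near DHRS2 (-0.087).

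In SNU398 the LTR12C sum was 225 and 221 RPM with the combination, 178 and 185 with decitabine, 102 and 100 with GSK-126, and 122 and 122 with DPBS. The log2 changes were 0.87, 0.57 and -0.27 (adjusted p = 2e-18, 3.4e-13 and 4.3e-06). All 3 treatments were separated from DPBS. Scaled by gene factors, the change with GSK-126 was -0.10 (adjusted p = 0.041). In SNU475 the sum was 65.1 and 69.9 RPM with the combination, 55.8 and 57.5 with decitabine, 51.8 and 53.3 with GSK-126, and 57.5 and 60.4 with DPBS. There the combination was higher by 0.19 (adjusted p = 7.7e-05), decitabine was not called (-0.06, adjusted p = 0.2) and GSK-126 was lower by a log2 change of -0.16 (adjusted p = 0.001).

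For LTR12C the combination exceeded decitabine alone by 0.25 in HepG2 (adjusted p = 1.1e-06), 0.29 in SNU398 (adjusted p = 6.3e-07) and 0.25 in SNU475 (adjusted p = 0.00017). Since GSK-126 alone gave values below DPBS, the combination exceeded the product of the single effects by 0.45 ± 0.06 in HepG2, 0.56 ± 0.06 in SNU398 and 0.41 ± 0.06 in SNU475 (adjusted p = 1.2e-08, 4e-09 and 2.2e-06). Over all 843 subfamilies tested, the median of this excess was -0.94 in HepG2, 0.20 in SNU398 and 0.17 in SNU475.

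With the combination, the internal part HERV9-int changed most in HepG2 without the members near DHRS2, and most in SNU398 over all members. Its sum there was 39.3 and 39.3 RPM with the combination, 31.9 and 31.5 with decitabine, 9.30 and 10.1 with GSK-126, and 9.78 and 10.4 with DPBS. The log2 change was 1.91 ± 0.07 with the combination (adjusted p = 1.5e-21) and 1.60 with decitabine (adjusted p = 3.5e-19), in both cases the highest of 843 subfamilies, and GSK-126 was not called (-0.06). In HepG2 the sum was 371 and 363 RPM with the combination, 309 and 325 with decitabine, 182 and 183 with GSK-126, and 204 and 205 with DPBS. The HepG2 log2 change with the combination was 0.84 over all members and 2.51 without those near DHRS2. SNU398 gave 1.825 without them. In SNU475 HERV9-int had 9.98 and 10 RPM with the combination, 7.75 and 8.11 with decitabine, 6.45 and 6.83 with GSK-126, and 10.2 and 8 with DPBS. The call of a lower level with decitabine there (-0.18, adjusted p = 0.016) ended without DPBS replicate A (-0.012) or decitabine replicate A (-0.15), and without DPBS replicate A the combination was called higher (0.303).

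LTR12D is the subfamily of the 2 LTRs in DHRS2. Its HepG2 sum was 414 and 414 RPM with the combination, 355 and 359 with decitabine, 364 and 376 with GSK-126, and 325 and 303 with DPBS, a log2 change of 0.40 ± 0.11 with the combination (adjusted p = 0.0045). Outside gene bodies the same subfamily had 16.8 and 17.0 RPM with the combination, 8.60 and 8 with decitabine, 2.55 and 2.64 with GSK-126, and 1.57 and 1.70 with DPBS. That was a log2 change of 3.03 ± 0.12 with the combination (adjusted p = 9.4e-32), second of 585 subfamilies summed outside genes. In SNU398 LTR12D was the one subfamily of the 8 that rose with GSK-126, at 18.4 and 17.6 RPM against 7.82 and 7.38 with DPBS (1.19 ± 0.11, adjusted p = 5.9e-07). A single copy in AGMO, at chr7:15435805-15437185, made 82.7% of that increase, with 8.47 and 8.28 RPKM under GSK-126 against 2.11 and 2.17 with DPBS.

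Summed over all members, LTR12_ had the largest log2 change of the family in HepG2; without the members near DHRS2, LTR12D changed by more (3.53 with the combination and 2.44 with decitabine). LTR12_ had 28.8 and 29.5 RPM with the combination, 18.3 and 18.3 with decitabine, 4.48 and 4.23 with GSK-126, and 3.91 and 3.43 with DPBS, which was 2.83 ± 0.09 with the combination (adjusted p = 3.4e-24) and 2.17 with decitabine, second of 843 subfamilies in both. In SNU475 its sum went the other way, with 4.14 and 4.62 RPM under the combination against 5.47 and 6.01 with DPBS (-0.35, adjusted p = 0.00049). A single copy, at chr11:110277205-110277868, made 84.5% of that fall, and LTR12_ inside genes changed by 0.005. LTR12 rose in HepG2 to 40.2 and 40.6 RPM with the combination and 26.0 and 26.7 with decitabine, but fell to 12.8 and 13.6 with GSK-126, against 18.8 and 18.9 with DPBS. A single copy, at chr5:138882528-138883358, made 66.2% of the fall of LTR12 with GSK-126. It had 3.05 and 3.02 RPKM with GSK-126 against 7.75 and 7.38 with DPBS. This copy was also lower with the combination (3.58 and 3.32) and with decitabine (3.35 and 3.27). The combination exceeded the product of the single effects on LTR12 by 1.11 ± 0.11 (adjusted p = 1.3e-11), and the part of this copy in that excess was not tested. LTR12E (2.10), LTR12B (1.23) and LTR12F (1.10) also rose with the combination in HepG2, from low levels of 1.36 to 3.41 RPM with DPBS. One LTR12E copy, at chr14:56306057, made 42.5% of the increase of its subfamily, at 1.79 and 2.17 RPKM with the combination and listed at 0 with DPBS.

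By count, all 8 subfamilies were called higher with the combination in HepG2 (36.5% of all 843 subfamilies tested were called higher). With decitabine 7 were called higher (85.1% of all were), and with GSK-126 3 were higher and 3 lower (72.6% and 6.29% of all). In SNU398 the combination gave 7 higher (49.2% of all). In SNU475 it gave 1 higher, LTR12C, and 1 lower, LTR12_ (5.46% and 72.2% of all). With so broad a shift over other repeats, the calls were read against the rest of the table. LTR12C itself, set against each of the 835 subfamilies outside the family in the same fit, changed more upward than 825 with the combination in HepG2, 817 with decitabine, and 809 and 785 in SNU398. In SNU475 it changed more upward than 719 with the combination and 476 with decitabine. With GSK-126 the order was turned in HepG2, where LTR12C changed less than 720 subfamilies and more upward than 21. In SNU398 it changed less than 424 and more upward than 31, and in SNU475 less than 76 and more upward than 129.

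HERVH, another endogenous retrovirus with LTR7 as its LTR, was close to LTR12C in HepG2. Its internal part rose by 1.79 with the combination and 2 with decitabine, so that LTR12C changed by 0.20 more with the combination (adjusted p = 0.0071) and by 0.26 less with decitabine (difference -0.26, adjusted p = 0.00061). LTR7 itself rose by 0.43 with the combination, and LTR12C exceeded it by 1.56 (adjusted p = 2.4e-20). The LTR7 subfamilies differed among themselves. LTR7Y rose by 1.73 with the combination and 1.76 with decitabine. LTR12C differed from LTR7Y by 0.26 with the combination (adjusted p = 0.035) and by -0.02 with decitabine (adjusted p = 0.88). LTR7B and LTR7C were lower with the combination (-0.85 and -0.22). The 7 tested subfamilies of LTR10 ranged from -1.98 to 0.41 with the combination in HepG2, and the 7 of MER41 from -0.13 to 0.42. In SNU475 the order was turned, and HERVH-int changed by more than LTR12C with the combination (difference -0.38, adjusted p = 4.5e-06).

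Several subfamilies changed by different amounts outside and inside gene bodies; these differences were not tested. With the combination in HepG2, members outside gene bodies summed to 574 and 571 RPM, against 182 and 172 with DPBS, and those overlapping a gene body to 1009 and 1002 RPM, against 559 and 539 with DPBS. Over all members LTR12C changed by 1.67 outside and 2.61 inside genes, HERV9-int by 1.77 outside and 0.62 inside, and LTR12 by 0.60 outside and 1.83 inside. The order of the first 2 turned without the members near DHRS2, of which 3 LTR12C copies lie outside genes and 2 HERV9-int pieces inside. LTR12C outside genes then had 354 and 350 RPM with the combination against 47.6 and 47.0 with DPBS (2.88), and HERV9-int inside genes had 100 and 101 RPM against 6.14 and 6.75 (3.87). In HepG2, GSK-126 gave lower calls in both places, at 45 of 458 tested members outside and 26 of 404 inside genes (3.08% of all loci). Several subfamily sums were lower outside genes, while LTR12D and LTR12B had higher sums there. There HERV9-int had 12.4 and 12.5 RPM with GSK-126 against 27.1 and 27.3 with DPBS (-1.10 ± 0.08, adjusted p = 5e-19), and LTR12 had 6.85 and 6.92 RPM against 14.0 and 13.7 (-0.96, adjusted p = 7.3e-11). The LTR12 copy at chr5:138882528, which made 66.2% of the LTR12 fall over all members, lies outside genes. LTR12C inside genes was not called with GSK-126 in HepG2 (0.073) or SNU398 (0.011). In SNU475 LTR12C rose with the combination outside genes, at 28.1 and 30.1 RPM against 20.5 and 22.0 with DPBS (0.44, adjusted p = 3e-13), but not inside them (0.026).

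Single loci could be tested where a locus reached 0.2 RPM in at least 2 libraries, which 862 members did, 458 of them outside gene bodies. Because a member could pass that filter through its treated libraries alone, the counts below describe these 862 and not the family. In HepG2 the combination gave 669 called higher and 13 lower, against 14.5% and 8.66% of all 61166 loci tested. Decitabine gave 671 higher and 9 lower (31.8% and 2.58% of all loci), and GSK-126 49 higher and 71 lower (17.1% and 3.08%). In SNU398 the numbers were 244 and 2 with the combination (4.44% and 1.07%), 160 and 2 with decitabine (1.34% and 0.386%) and 17 and 24 with GSK-126 (2.94% and 3.87%). In SNU475 they were 72 and 22 with the combination (3.29% and 11.8%), 44 and 20 with decitabine (2.62% and 8.63%) and 11 and 17 with GSK-126 (1.68% and 4.95%).

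**Figure D2:**
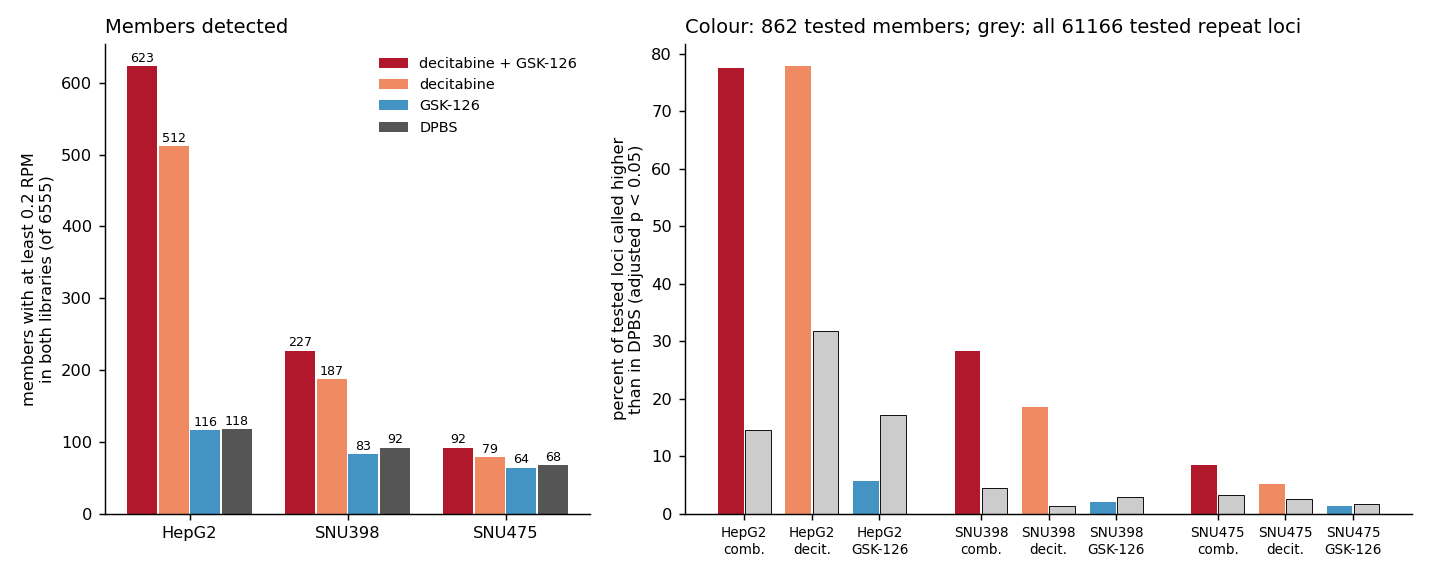
Left, members with at least 0.2 RPM in both libraries of a group, of 6555, for each line and treatment from combination to DPBS. Right, the percentage of the 862 tested members (coloured) and of all 61166 tested loci (grey) called higher than DPBS. The left bars stand at 623, 512, 116 and 118 in HepG2 and between 64 and 92 in SNU475.

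Members already transcribed with DPBS give a comparison in which the filter cannot favour the treated libraries, although choosing on DPBS favours falls. In HepG2, 118 members had at least 0.2 RPM in both DPBS libraries. With the combination 64 of them were called higher and 13 lower, where loci chosen in the same way from the whole table gave 11.1% higher and 26.8% lower. With decitabine 67 were higher and 9 lower (18.9% and 10.7%). With GSK-126 14 were higher and 48 lower (16.3% and 11.6%). In SNU398, 21 of 92 were higher and 2 lower with the combination (3.74% and 3.82%), 15 higher and 2 lower with decitabine (1.23% and 1.27%), and 7 higher and 21 lower with GSK-126 (4% and 12.7%). In SNU475, 3 of 68 were higher and 18 lower with the combination (3.65% and 30.7%), 18 were lower with decitabine (23.5%), and 2 were higher and 14 lower with GSK-126 (1.99% and 15.4%).

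The combination against decitabine alone gave 289 members called higher and 63 lower in HepG2, where 3.82% of all loci were called higher and 24.8% lower. Among the 118 members transcribed with DPBS it gave 9 higher and 14 lower at a median of -0.16 (4.78% and 29.2% of all loci chosen in that way), so the larger number of higher calls over all 862 was not seen there. SNU398 gave 17 higher (1% of all loci) and SNU475 2 higher (0.0948%). Among the tested HepG2 members, 113 of 127 LTRs beside an internal part, 106 of 125 HERV9-int loci and 450 of 610 solo LTRs were called higher with the combination. These shares were not compared by a test.

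**Figure D3:**
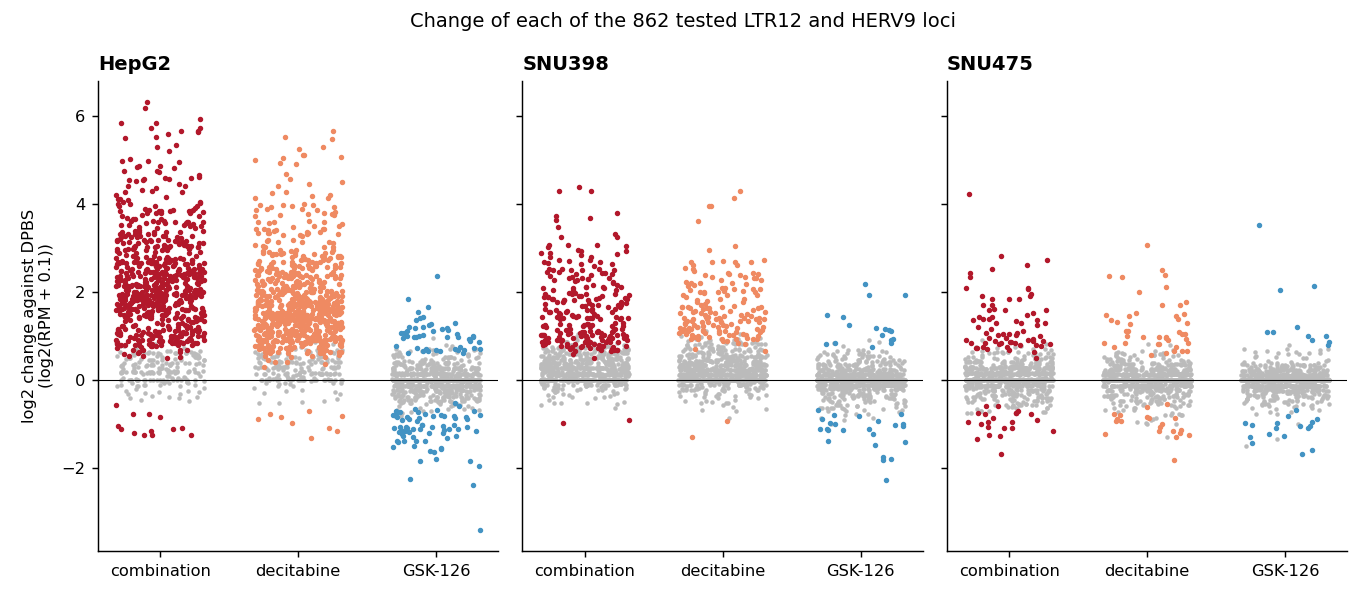
Log2 change of each of the 862 tested members against DPBS, by line and treatment (combination, decitabine and GSK-126 from left to right). Coloured points were called and grey points were not. With the combination in HepG2, 669 members were called higher and 13 lower.

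Members called higher in one line were compared with those of another. With the combination, 207 were called in both HepG2 and SNU398, which is 30.9% of the HepG2 list and 84.8% of the SNU398 list. HepG2 and SNU475 shared 69, or 10.3% of the HepG2 and 95.8% of the SNU475 list. All 3 lines shared 45. Of all 862 members tested, 77.6% were called higher in HepG2, 28.3% in SNU398 and 8.4% in SNU475, and since a locus had to pass a filter in any line, the lists are not drawn independently. ALB, high in HepG2, was at 0.069% of its HepG2 mean in SNU398 combination libraries, 0.28% in SNU398 decitabine libraries, 0.082% in SNU475 combination libraries and 0.02% in SNU475 decitabine libraries. The part of HepG2 RNA in the shared calls was not tested.

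Among called loci with separated libraries and a treated mean of at least 0.5 RPM, off chromosomes 8 and Y, the largest HepG2 rise was at an LTR12C at chr1:63227011-63228332, outside genes and 21474 bases from ATG4C, a protease of autophagy. It had 25.4 and 22.6 RPKM with the combination, 14.7 and 15.7 with decitabine, 0.230 and 0.157 with GSK-126, and 0.234 and 0.222 with DPBS. The log2 change was 6.31 ± 0.22 with the combination (adjusted p = 5.1e-15) and 5.65 with decitabine, and GSK-126 was not called (-0.19). It adjoins internal pieces, and the other pieces of this insertion moved with it. The HERV9-int stretch at chr1:63226201-63227010 had 14.8 and 12.1 RPKM with the combination against 0.048 and 0.258 with DPBS, and the LTR12C at chr1:63218928-63220495 had 3.76 and 3.76 against 0.099 and 0.027. ATG4C itself had 0.855 and 0.710 scaled RPKM with the combination, 1.52 and 1.22 with decitabine, 2 and 1.78 with GSK-126, and 2.23 and 2.11 with DPBS, a change of -1.06.

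Other HepG2 copies were near silence without decitabine. The LTR12C at chr4:88316262-88317662, 3724 bases from HSD17B11 (a steroid dehydrogenase), had 5.78 and 5.37 RPKM with the combination, 5.57 and 5.55 with decitabine, 0.072 and 0.082 with GSK-126, and 0.014 and 0.105 with DPBS (5.52 ± 0.31 with either treatment that held decitabine). The LTR12C at chr11:101100835-101102622 had 3.26 and 3.07 RPKM with the combination and 1.15 and 0.79 with decitabine, and was listed at 0 in both DPBS libraries, so no fold is given. Inside genes, the LTR12C at chr1:175070212-175072001 in TNN (tenascin N, a matrix protein) had 8.93 and 7.99 RPKM with the combination, 5.52 and 4.82 with decitabine, 0.102 and 0.026 with GSK-126, and 0.065 and 0.058 with DPBS (6.18 ± 0.29, adjusted p = 4.2e-13). All of these libraries with decitabine lay above all without it. The LTR12D at chr16:21640777-21641828 in METTL9, a protein histidine methyltransferase, had 7.03 and 6.68 RPKM with the combination, 2.47 and 2.30 with decitabine, 0.019 and 0.022 with GSK-126, and 0.018 and 0.020 with DPBS (5.93 ± 0.18). Its host gene did not follow, with 10.8 and 11 scaled RPKM with the combination against 15.5 and 16.1 with DPBS (-0.52).

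A minority of HepG2 members fell. A provirus on chromosome 5 was lower under every treatment. Its HERV9-int at chr5:138889820-138890851 had 3.92 and 4.48 RPKM with the combination, 4.86 and 5.24 with decitabine, 4.24 and 3.45 with GSK-126, and 10.1 and 10 with DPBS. The log2 changes were -1.24, -0.98 and -1.37 (adjusted p = 0.00048, 0.003 and 0.00035). Opposite effects of the single drugs met at a HERV9-int 20571 bases from KCNN3 (a calcium-activated potassium channel), at chr1:154644476-154649360. It had 0.672 and 0.815 RPKM with the combination, 1.14 and 1.03 with decitabine, 0.042 and 0.056 with GSK-126, and 0.333 and 0.287 with DPBS. Decitabine gave 1.74 (adjusted p = 9e-06), GSK-126 -2.25 ± 0.24 (adjusted p = 1.2e-06) and the combination 1.21 (adjusted p = 0.00073). The LTR12C at chr6:24765340, 8432 bases from GMNN, was lower with GSK-126 (-1.84). Its call of a lower level with the combination (0.243 and 0.042 RPKM against 0.474 and 0.302 with DPBS, -1.25) ended without combination replicate B (-0.521) or DPBS replicate A (-0.981).

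In HepG2 the 2 loci near DHRS2 described next were high with every treatment and with DPBS. The LTR12D at chr14:24104836-24105861 had 303 and 297 RPKM with the combination and 274 and 278 with decitabine. It had 313 and 322 with GSK-126, and 265 and 247 with DPBS. Every treated library lay above both DPBS libraries. The log2 changes were 0.23, 0.11 and 0.31 with an SE of 0.46, and no treatment was called. The LTR12C at chr14:24053109-24054656, outside genes and 5100 bases from JPH4 (junctophilin 4), had 40.1 and 39.8, 54.9 and 53.9, 43.7 and 40.8, and 56.0 and 49.8 RPKM in the same order, again with no call. Another copy, the LTR12C at chr14:24049653, was lower with the combination, at 0.219 and 0.207 RPKM against 0.551 and 0.461 with DPBS (-1.03, adjusted p = 0.0066), a call that ended without DPBS replicate A (-0.921). In SNU398 the same LTR12D had 5.51 and 5.46 RPKM with the combination against 0.404 and 0.276 with DPBS (3.69 ± 0.46, adjusted p = 1.3e-05). The LTR12C near JPH4 had 1.49 and 1.42 RPKM there with the combination, 0.959 and 0.694 with decitabine, 0.064 and 0.080 with GSK-126, and 0.182 and 0.114 with DPBS (2.86 with the combination). The DHRS2 gene went along in SNU398, at 3.98 and 4.32 scaled RPKM with the combination, 2.61 and 1.40 with decitabine (the first in the library with the higher ALB), 0.518 and 0.559 with GSK-126, and 0.308 and 0.206 with DPBS (2.62 ± 0.39, adjusted p = 6e-05). In HepG2 the DHRS2 gene had 432 and 416 scaled RPKM with the combination against 306 and 302 with DPBS (0.48 ± 0.39), and was not called. In SNU475 the LTR12D had 2.43 and 0.249 RPKM in the 2 DPBS libraries, of which the first is the library with the higher ALB.

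**Figure D4:**
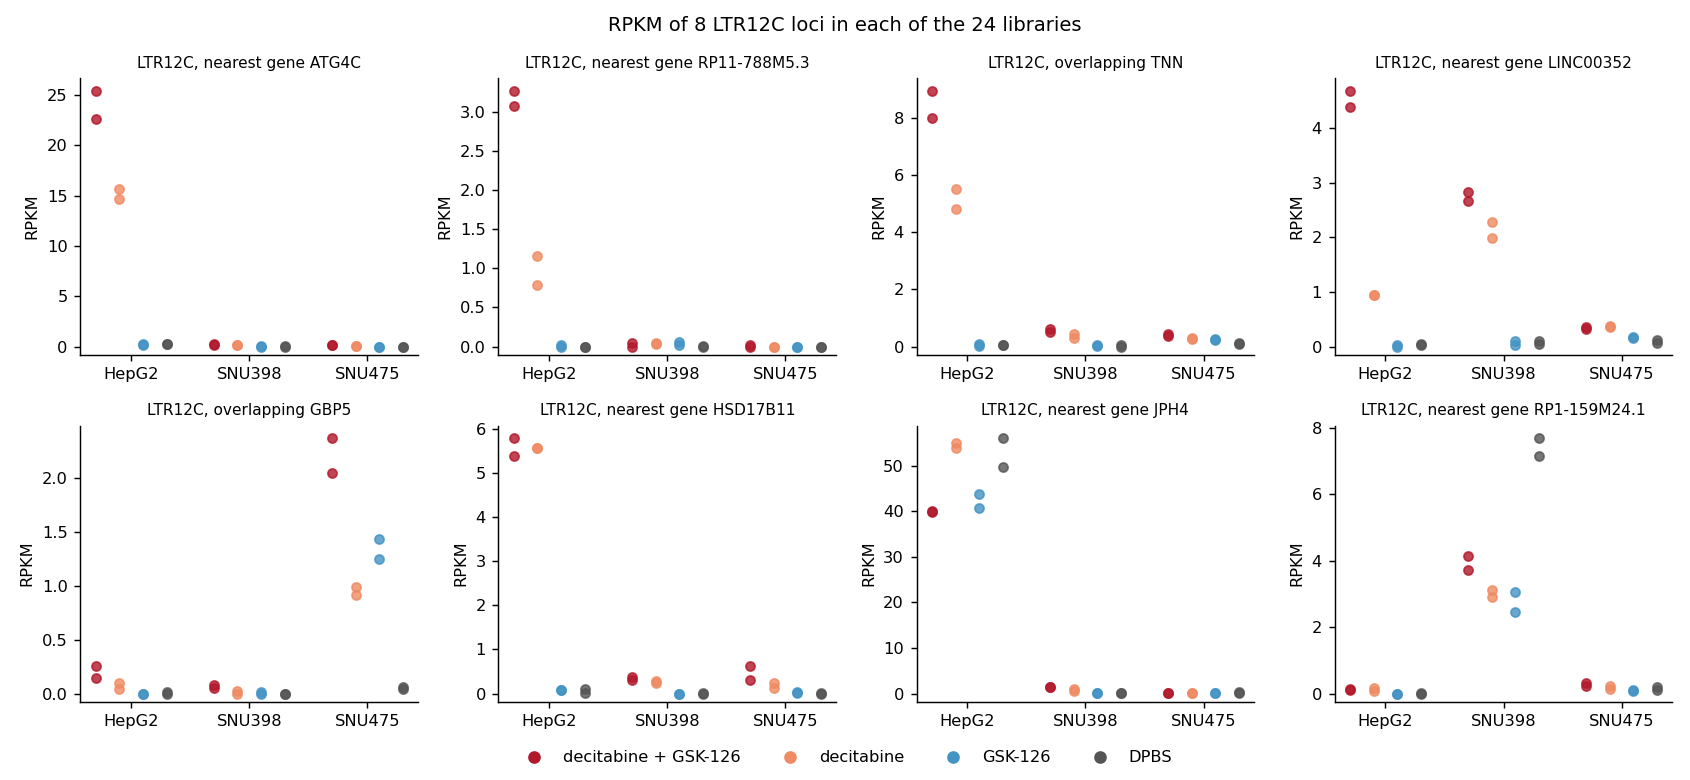
RPKM of 8 LTR12C copies in every library (linear axis with its own range for each copy), named by the gene they overlap or lie nearest to, with treatments from combination at the left to DPBS at the right. Each point is a library. The copy near ATG4C stands at 25.4 and 22.6 RPKM with the combination in HepG2 against 0.234 and 0.222 with DPBS, whereas the copy near JPH4 stays between 39.8 and 56.0 RPKM in HepG2.

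In SNU398, the largest rise outside genes was at the LTR12C at chr13:24105519-24106996, 28506 bases from LINC00352. It had 2.66 and 2.82 RPKM with the combination, 2.27 and 1.99 with decitabine, 0.093 and 0.036 with GSK-126, and 0.056 and 0.096 with DPBS (4.30 ± 0.23 with the combination). The same copy had 4.67 and 4.38 RPKM with the combination in HepG2 against 0.026 and 0.042 with DPBS (5.50), and 0.328 and 0.355 in SNU475 against 0.064 and 0.120 (1.38). Its combination and DPBS libraries did not overlap in any line. An LTR12F across one end of PTPRS, a receptor tyrosine phosphatase, at chr19:5158470-5158875, had 7.28 and 5.95 RPKM with the combination, 6.11 and 6.39 with decitabine, 0.049 and 0.044 with GSK-126, and 0.041 and 0.131 with DPBS (4.37 ± 0.22). It accounted for 101% of the rise of the LTR12F sum in SNU398, so the remaining LTR12F copies summed to no rise. PTPRS itself had 20 and 20.4 scaled RPKM with the combination against 17.2 and 16.3 with DPBS (0.27).

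GSK-126 lowered a provirus on chromosome 11 in SNU398. Its HERV9-int at chr11:23956836 had 0.355 and 0.116 RPKM with GSK-126 against 1.63 and 1.71 with DPBS (-2.27 ± 0.30), and its LTR12C at chr11:23955475 had 0.218 and 0.301 against 1.05 and 1.09 (-1.79). With the combination the same LTR12C had 1.32 and 1.65 RPKM and with decitabine 1.17 and 1.46, all above DPBS but not called. The copies highest with DPBS in SNU398 were likewise lower with GSK-126. The LTR12C at chr1:187041733-187042105 had 8.52 and 9.35 RPKM with GSK-126 against 18.0 and 18.2 with DPBS (-1), and that at chr4:34336558 had 3.73 and 3.39 against 7.93 and 7.64 (-1.11). The first call ended without either DPBS library (-1.01 without A and -0.99 without B) or GSK-126 replicate A (-0.93). The second ended without any 1 of the 4 libraries compared (-1.18 to -1.05). By RPM the highest SNU398 copy with DPBS, the LTR12C at chr6:113009716-113011156, was lower with every treatment. It had 4.14 and 3.71 RPKM with the combination and 2.90 and 3.12 with decitabine. GSK-126 gave 3.07 and 2.47, and DPBS 7.69 and 7.17. The log2 changes were -0.91, -1.28 and -1.41, and it made 32.3% of the LTR12C fall with GSK-126. With 1 library left out, the combination change ran from -0.99 to -0.83, and its call ended in 4 of 8 fits.

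SNU475 gave fewer changes, led by an LTR12C across one end of GBP5, a guanylate-binding protein induced by interferon. This copy, which lies partly outside the gene, at chr1:89738136-89739573, had 2.05 and 2.37 RPKM with the combination, 0.990 and 0.912 with decitabine, 1.25 and 1.44 with GSK-126, and 0.066 and 0.041 with DPBS. The log2 changes were 4.22 ± 0.25, 3.06 and 3.52 (adjusted p = 1.5e-10, 3e-08 and 7.7e-09). All 3 treatments were separated from DPBS, GSK-126 alone included. The GBP5 gene had 4.28 and 4.51 scaled RPKM with the combination, 2.48 and 2.53 with decitabine, 3.15 and 3.32 with GSK-126, and 0.178 and 0.15 with DPBS (2.88, 2.18 and 2.49). In HepG2 the same copy had 0.256 and 0.141 RPKM with the combination.

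Outside genes in SNU475, the LTR12C at chr1:240925608-240926995 had 0.610 and 0.651 RPKM with the combination, 0.370 and 0.347 with decitabine, 0.051 and 0.141 with GSK-126, and 0.027 and 0.028 with DPBS (2.82 ± 0.28). The nearest gene, the non-coding RP11-80B9.1 at 1862 bases, had 2.22 and 1.82 scaled RPKM with the combination, 1.35 and 1.13 with decitabine, 0.278 and 0.458 with GSK-126, and 0.0631 and 0.132 with DPBS (2.08). Near PXDC1 (1285 bases), the LTR12C at chr6:3719793 rose by 2.07, while PXDC1 itself changed by 0.20 in SNU475 and by 1.69 in HepG2. An LTR12_ at chr11:110277205-110277868, 81 bases from the nearest gene, was lower with every treatment, at 1.28 and 0.949 RPKM with the combination, 1.04 and 1.16 with decitabine, 0.804 and 0.750 with GSK-126, and 2.59 and 3.11 with DPBS (-1.25 with the combination and -1.69 with GSK-126). The LTR12C at chr1:14746024 was high in the GSK-126 libraries, at 0.240 and 0.251 RPKM against 0 and 0.013 with DPBS, and had 0.031 and 0 with the combination and 0.013 and 0 with decitabine.

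The 45 members called higher with the combination in all 3 lines were picked for that pattern, so their values describe it and are no test. They included several pieces of single insertions, such as 3 loci in TNN and 3 near KCNN3. The LTR12C near KCNN3, at chr1:154650331-154651788, had 7.93 and 7.85 RPKM in HepG2 combination libraries against 1.53 and 1.56 with DPBS, 2.74 and 2.80 in SNU398 against 0.307 and 0.291, and 0.398 and 0.548 in SNU475 against 0.168 and 0.148. The LTR12C in ETV7, an ETS-family repressor, at chr6:36330912 had 4.91 and 4.99 RPKM in HepG2 against 0.233 and 0.378 with DPBS. ETV7 itself had 0.793 and 0.945 scaled RPKM in HepG2 combination libraries against 0.00887 and 0 with DPBS, and 2.12 and 2.07 in SNU475 against 0.357 and 0.263. The ETV7 gene was thus higher in SNU475 than in HepG2.

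Genes that start inside a member were then examined. The deposited gene table gives no strand, so starts were taken with the strand of GENCODE release 29, which covered 52526 of the 63677 genes (82.5%). By this, 127 genes began in a member, 32 of them protein-coding and 70 in an LTR12C. The start lay 1083.5 bases into the LTR12C at the median (75.3% of its length), and 58 of the 70 starts fell between 60% and 90% of it. A gene that starts in a repeat shares reads with it.

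**Figure D5:**
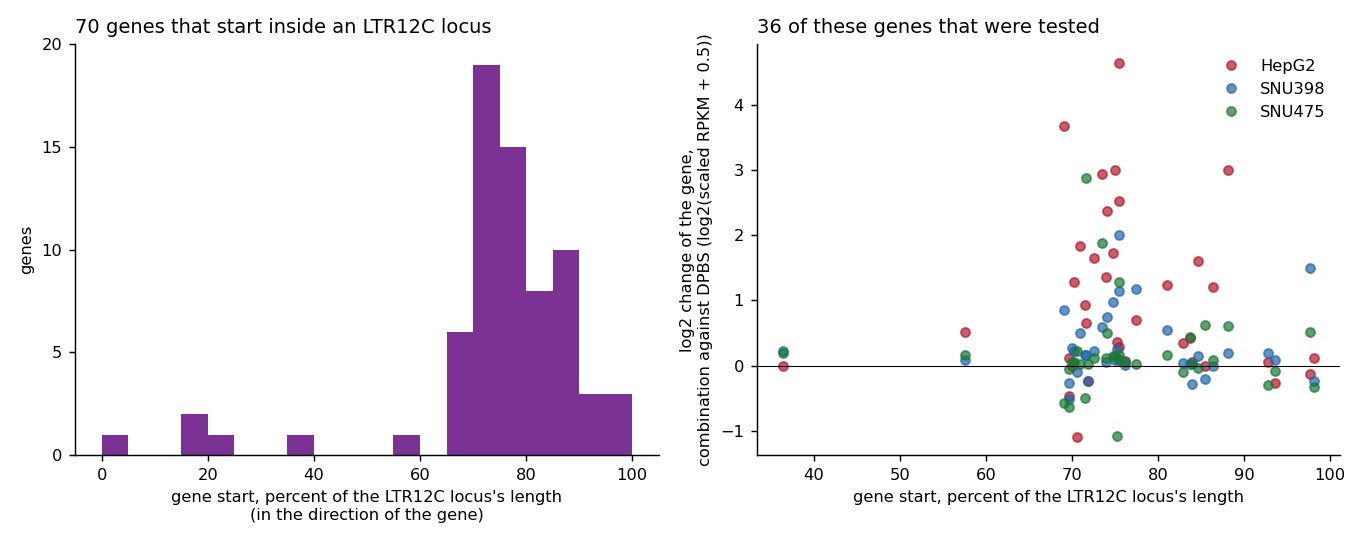
Left, number of genes by the position of their start within an LTR12C copy, as a percentage of its length, for 70 genes. Right, log2 change of the 36 tested ones with the combination against DPBS (vertical axis) by the same start position (horizontal axis) in HepG2, SNU398 and SNU475. The histogram stands highest between 60% and 90%, and the HepG2 points reach 4.65.

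Of the 127, 49 were tested. Because a gene could pass the filter through its treated libraries alone, the counts below describe these 49 and not the 127. In HepG2, 33 were called higher and 4 lower with the combination (40.6% and 25.9% of all 19377 genes tested), 34 and 2 with decitabine (35.9% and 18.3%) and 3 and 6 with GSK-126 (31.0% and 21.7%). In SNU398 the combination gave 22 higher and 6 lower (28.9% and 18.4% of all genes), and in SNU475 13 and 7 (25.3% and 29.6%). Of the 31 genes that are not protein-coding, 21 were higher with the combination in HepG2, and of the 18 protein-coding ones 12 were higher and 4 lower.

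RP11-206M11.7 is annotated as antisense and starts 945 bases into the LTR12C at chr3:149001625-149002877 (hg19, + strand), which lies beside an internal part. It had 13.1 and 12.9 scaled RPKM with the combination in HepG2, 9.17 and 9.32 with decitabine, 0.0842 and 0.143 with GSK-126, and 0.0388 and 0.0417 with DPBS (4.65 ± 0.11, adjusted p = 3.2e-14). It also rose in SNU398 (1.15) and SNU475 (1.28). The kit marks strand, but how strand was used in counting is not given, so reads of such a gene and its partner on the other strand cannot be told apart. RP11-497G19.1 had 3.03 and 2.86 scaled RPKM in HepG2 with the combination against 0.0976 and 0.105 with DPBS (2.52), and changed by 2.01 in SNU398. RP11-11N5.1 had 4.22 and 3.72 with the combination, 0.813 and 1.39 with decitabine, 0.0466 and 0.0527 with GSK-126, and 0.173 and 0 with DPBS in HepG2 (2.94), and changed by 1.88 in SNU475. RP11-20D14.6 changed by 2.38, RP11-325F22.2 by 1.73 and RP11-70C1.1 by 1.65 in HepG2.

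Among protein-coding genes starting in a member, C5orf27 rose by 3.01 in HepG2 with the combination, ACSBG1 (an acyl-CoA synthetase) by 1.83 and PARP16 (an ADP-ribosyltransferase of the endoplasmic reticulum) by 0.93. ACSBG1 had 2.12 and 2.04 scaled RPKM with the combination, 1.93 and 1.98 with decitabine, 0.0978 and 0.0928 with GSK-126, and 0.240 and 0.212 with DPBS. C1orf112 was lower, with 1.15 and 1.14 scaled RPKM with the combination, 1.90 and 1.88 with decitabine, 0.921 and 0.907 with GSK-126, and 2.89 and 3.13 with DPBS (-1.09). RP11-734I18.1, which starts in the LTR12C at chr4:31997829-31999411, was lower in SNU475 (-1.08).

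A list of 6 genes described as driven by an LTR12 copy held 4 that could be tested, GBP2, GBP5, ADH1C and TNFRSF10B. All 4 were called higher with the combination in HepG2 (40.6% of all genes were). ADH1C reached the filter of 0.5 RPKM in its HepG2 combination libraries alone, so its call there is no test. GBP2 had 1.5 and 1.65 scaled RPKM with the combination, 0.715 and 0.735 with decitabine, 0.265 and 0.239 with GSK-126, and 0.307 and 0.255 with DPBS (1.41). ADH1C, an alcohol dehydrogenase, had 0.934 and 1.06 with the combination and was listed at 0 in both DPBS libraries. In SNU475 2 were higher and 1 lower with the combination (25.3% and 29.6% of all genes), and GBP2 had 12.5 and 12.8 with the combination, 10.2 and 9.99 with decitabine, 17.1 and 18.4 with GSK-126, and 4.96 and 5.00 with DPBS (1.26). In SNU398 1 of the 4 was called higher with each treatment (23.4% of all genes were with decitabine and 30% with GSK-126), and with GSK-126 this was TNFRSF10B, a death receptor, at 33.4 and 33.5 against 7.63 and 7.72 with DPBS (2.05). TP63 and ZNF80 were too low to test.

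Factors described as binding LTR12 (NFYA, NFYB, NFYC, MZF1 and GATA2) gave 3 higher and 1 lower of 5 with the combination in HepG2 (40.6% and 25.9% of all genes), 1 and 2 in SNU398 (28.9% and 18.4%), and 2 and 2 in SNU475 (25.3% and 29.6%). Genes that silence endogenous retroviruses numbered 11 (DNMT1, UHRF1, TRIM28, SETDB1, EZH2, EED, SUZ12, MORC2, FAM208A, MPHOSPH8 and PPHLN1). Set against the same shares of all genes, the combination gave 3 higher and 7 lower in HepG2, 1 and 7 in SNU398, and 4 and 5 in SNU475, at list medians of -0.38, -0.21 and -0.05 against 0.08, 0.03 and -0.01 for all genes. With GSK-126 in HepG2 the 11 were split, with 5 higher and 6 lower (31.0% and 21.7% of all genes) at a list median of -0.21. Among the lower ones UHRF1, which guides DNA methylation to replicated DNA, had 5.34 and 5.43 scaled RPKM against 19 and 18.4 with DPBS (-1.71).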

How the data were processed

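RNA libraries (ribosomal RNA removed, stranded kit, single-end reads of 75 bases) were analysed from tables of RPKM per gene and per RepeatMasker locus that the authors deposited. Reads were aligned with HISAT2 and counted with featureCounts on hg19, per the submitters' processing notes; the treatment of multiply mapped reads and of strand is not given in the sources used here. Copies of a repeat family are alike, so levels of single loci are uncertain where reads fit several copies.

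From the deposited RPKM, RPM was computed as RPKM times length in kb. Gene values were divided by a median-of-ratios factor from genes of at least 1 RPKM in every library and are called scaled RPKM. Low values were whole multiples of 1 read within a tolerance of 0.15. After an exclusion by name 4494509 loci remained. Sums per subfamily (at least 1 RPM in at least 2 libraries), loci (0.2 RPM) and genes (0.5 RPKM) were tested as log2(RPM + 0.5), log2(RPM + 0.1) and log2(scaled RPKM + 0.5), so fold changes of low features are understated. limma 3.58.1 in R 4.3.3 fitted a mean for each of 12 groups over 24 libraries, with moderated two-sided tests and Benjamini-Hochberg adjustment over all features of a contrast. The code was tested on simulated data.

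Members and gene lists were chosen with earlier results of these data known. Loci were named by rule: off chromosomes 8 and Y, per line the 3 highest with DPBS, the 5 largest rises with decitabine or the combination (2 inside genes), the 3 largest falls with the combination, and the 3 largest changes either way with GSK-126, among called loci with separated libraries. The DHRS2 loci, the GBP5 copy, the loci called in 3 lines, those making most of a subfamily's change, the genes starting in members and the host genes were chosen after their values were seen. Alternatives were other pseudocounts, filters and scaling, voom weights on recovered reads, each line alone, a 2-fold minimum, loci by position, a replicate block, and each library left out. Sequences are not reported here.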

Additional observations from a re-analysis of the deposited data

Results flagged for a closer look

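The effect of the combination differed between lines for most subfamilies by a test of the difference in limma (all adjusted p-values from Benjamini-Hochberg adjustment over 843 subfamilies). Day of harvest differs between SNU475 and the other lines and cannot be told apart from line. The effect in HepG2 minus that in SNU398 was 1.124 for LTR12C (adjusted p = 4.6e-17), 1.81 for LTR12_ (adjusted p = 3.3e-14), 1.784 for LTR12E (adjusted p = 1.7e-10), 0.955 for LTR12B (adjusted p = 9.4e-06) and 0.594 for LTR12F (adjusted p = 3.3e-05). It was -1.067 for HERV9-int (adjusted p = 2.8e-11) and -1.386 for LTR12D (adjusted p = 1e-06), the 2 subfamilies with copies in DHRS2. Over all 843 subfamilies the median of this difference was -0.2. Without the members near DHRS2, HERV9-int changed by 2.514 in HepG2 and 1.825 in SNU398, and LTR12D by 3.527 in HepG2 and 1.483 in SNU398, so both changed more in HepG2; the difference without these members was not tested.

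The effect in HepG2 minus that in SNU475 was 1.797 for LTR12C (adjusted p = 2.1e-23), 3.19 for LTR12_ (adjusted p = 5.3e-21), 1.956 for LTR12E, 1.467 for LTR12B, 1.234 for LTR12F, 1.136 for LTR12, 0.706 for HERV9-int and 0.546 for LTR12D (adjusted p = 0.006). Of all 843 subfamilies, 59.0% were called higher in this contrast.

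The effect in SNU398 minus that in SNU475 was 1.932 for LTR12D (adjusted p = 1.1e-08), 1.773 for HERV9-int (adjusted p = 1.9e-16), 1.379 for LTR12_, 1.306 for LTR12, 0.673 for LTR12C (adjusted p = 2.5e-12), 0.64 for LTR12F and 0.512 for LTR12B. In this contrast 77.1% of all subfamilies were called higher.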

How the results depend on the processing

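Of the alternatives tried on the LTR12C sums, 277 values kept direction and side of the threshold, 3 lost the call, 3 gained one and 2 called values changed sign. With GSK-126, loci overlapping genes gave 0.073 in HepG2 and 0.011 in SNU398, members without those near DHRS2 gave -0.087 in HepG2 (an alternative chosen after seeing the data), and loci more than 10 kb from genes gave -0.082 in SNU475. In SNU475 loci overlapping genes gave 0.026 with the combination and -0.179 with decitabine, and with decitabine loci outside genes gave 0.138 and those beyond 10 kb 0.121, the opposite sign to the uncalled value over all loci (-0.056). Scaling by gene factors gave -0.097 for SNU398 with GSK-126, where the unscaled change was -0.27.

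The number of members called changed with the filter and the fit. Against 682 in HepG2 with the combination, a filter at 0.05 RPM gave 1209 and at 0.5 RPM 372. Against 680 with decitabine, 0.5 RPM gave 372, and against 120 with GSK-126, the line alone gave 50 and a 2-fold minimum 69. The combination minus decitabine in HepG2 gave 605, 194, 211, 153 and 172 under 0.05 RPM, 0.5 RPM, the line alone, voom and a 2-fold minimum, against 352. In SNU398 the line alone gave 147 of 246 with the combination, 67 of 162 with decitabine and 22 of 41 with GSK-126, where a 2-fold minimum gave 26; the combination minus decitabine gave 27 (0.5 RPM), 7 (pseudocount 0.05), 39 (pseudocount 0.5) and 6 (voom) against 17. In SNU475 a 2-fold minimum gave 53 against 94 with the combination and 35 against 64 with decitabine, where the line alone gave 40. With GSK-126 the line alone gave 13 and pseudocount 0.05 gave 16 against 28, and the combination minus decitabine gave 0, 7, 12, 4 and 1 (0.05 RPM, 0.5 RPM, the line alone, pseudocount 0.5, 2-fold) against 2. The cause was not tested.

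Leaving out 1 library gave 633 to 686 called members with the combination in HepG2, 628 to 691 with decitabine, 83 to 130 with GSK-126 and 284 to 354 for the combination minus decitabine. In SNU398 the ranges were 168 to 244, 106 to 164 (106 without DPBS B), 22 to 42 (22 without DPBS A, 24 without GSK-126 A) and 3 to 17 (3 without combination A or decitabine A, 7 without decitabine B). In SNU475 they were 66 to 92, 39 to 67 (39 without DPBS A or decitabine A), 12 to 29 (12 without DPBS A, 16 without GSK-126 A, 13 without GSK-126 B) and 0 to 3 (0 without decitabine A, 1 without decitabine B or either combination library). LTR12C sums ranged in HepG2 from 1.953 to 2.027 with the combination, 1.703 to 1.778 with decitabine, -0.233 to -0.158 with GSK-126, 0.235 to 0.265 for the combination minus decitabine and 0.408 to 0.483 for its excess. In SNU398 they ranged from 0.853 to 0.879, 0.544 to 0.602, -0.285 to -0.251, 0.264 to 0.322 and 0.533 to 0.591, and in SNU475 from 0.142 to 0.244, -0.092 to -0.021, -0.198 to -0.127, 0.198 to 0.3 and 0.361 to 0.463.

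In other subfamilies 18 called values changed sign. Outside genes these were LTR12 with decitabine in HepG2 (-0.085), LTR12 for the combination minus decitabine in SNU398 (-0.087, and -0.06 beyond 10 kb), the LTR12B excess in SNU398 (-0.057), LTR12D with decitabine in SNU475 (0.079, and 0.368 beyond 10 kb) and, with GSK-126, LTR12E (-0.128), LTR12F (-0.214) and LTR12_ (-0.565, and -0.367 beyond 10 kb) in HepG2 and LTR12F in SNU475 (0.181, and 0.158 beyond 10 kb). Beyond 10 kb the LTR12D excess in SNU475 was -0.037. Inside genes they were the HERV9-int excess in SNU398 (-0.211), LTR12 with GSK-126 in HepG2 (0.3), the LTR12_ excess in HepG2 (-0.532), and LTR12_ in SNU475 with the combination (0.005) and GSK-126 (0.051).

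Over the tested loci, libraries of the same letter did not deviate together (correlations of -0.012 to 0.024). Counting error at loci with few reads can hide a shared deviation, so this cannot tell whether the letters pair the libraries. With a replicate block the HepG2 combination gave 1.99 for LTR12C and 682 called members, decitabine 678, and the combination 239 in SNU398 and 91 in SNU475. The block changed no LTR12C call and moved no count of members by over 1.5 times. With 32.6 to 60.37 M reads, a locus near 0.2 RPM rests on few reads, and intervals on its level cover counting error only.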
